A study of Mus musculus with 16 samples.

Results

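P2rx7, Entpd1, Nt5e, Adora2a and Art2b, 5 of the 32285 genes listed in the series, were chosen as the genes by which a T cell senses extracellular ATP and NAD and takes part in turning ATP into adenosine. They were read in 9 matrices of CD8 T cells (72639 cells in 32 libraries) and by cell class in 2 matrices of all sorted cells, 11948 from rejecting kidneys and 47060 from naive spleens. All 5 were listed in every matrix.

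Dying and activated cells release ATP, which opens the cation channel P2X7 (encoded by P2rx7) and at high concentrations can kill T cells. On mouse T cells P2X7 is also opened through ADP-ribosylation by ART2.2, the enzyme that Art2b encodes, which uses extracellular NAD. CD39 (Entpd1) hydrolyses ATP and ADP to AMP and CD73 (Nt5e) converts AMP to adenosine, which raises cAMP in T cells through an adenosine receptor (encoded by Adora2a). CD39 is found on regulatory T cells, B cells, myeloid cells and chronically stimulated CD8 T cells, whereas naive CD8 T cells of the mouse carry CD73.

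CD45+ viable cells were sorted from kidney grafts and spleens of male mice and profiled by droplet 3' single-cell RNA-seq. Accepted grafts were DBA/2J kidneys in C57BL/6J (B6) recipients without immunosuppression, taken with the recipients' spleens at 1, 3 and 24 weeks (3, 5 and 3 libraries per tissue). Rejecting grafts were, by the study's methods, B6 kidneys in DBA/2J recipients at 1 week (2 kidney and 3 spleen libraries), although the labels list C57BL/6J and a WT genotype for every sample. Naive spleens were given as C57BL/6J, WT (5 libraries), and ages were not given. Rejection and strain therefore cannot be told apart. By the study's methods kidneys were perfused with and digested in collagenase, while spleens were ground through a strainer and red cells lysed. In kidney against spleen, tissue and preparation therefore cannot be told apart. Each library tag was taken as 1 mouse. By the study's methods every mouse was its own sample, and the tags of accepted recipients match the number of replicates given there, but no label ties a tag to a mouse, so p-values measure the spread between these libraries. In summed counts, fewer cells of a type and less RNA per cell cannot be told apart.

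The CD8 libraries held 56 to 8407 cells and 153266 to 25960721 UMIs (counted molecules), and no pair of libraries shared more than 1.79% of the smaller one's barcodes. A Cd8a or Cd8b1 UMI was present in 83.5 to 90.1% of cells of accepted kidneys at 1 week, in 96.3 to 97.0% at 3 weeks and in 95 to 97.6% in naive spleen, but in only 41.9 to 51.8% of cells of recipient spleens at 1 and 3 weeks. Rejecting kidneys had one in 76.6 and 78.1% of cells and rejecting recipients' spleens in all cells. No cell of these rejecting matrices had a Cd4 UMI without a CD8 UMI. They also listed 32285 genes, against 19497 in accepted kidneys and 17517 to 18363 in accepting recipients' spleens. Rejection and the selection of cells and genes for the matrices therefore cannot be told apart either. The matrices of accepting recipients' spleens at 1 and 3 weeks held 10.0 to 23.0% of cells with a Cd4 UMI and no CD8 UMI. The libraries labelled kidney at 24 weeks differed from the other accepted kidneys, with a CD8 UMI in 46.2 to 49.2% of cells and a Cd4 UMI alone in 18.7 to 22.7%. These values were near those of recipient spleens at 1 and 3 weeks. The libraries labelled spleen at 24 weeks had a CD8 UMI in 93.4 to 95.3% of cells, near the values of accepted kidneys at 3 weeks and of naive spleen. All results that use 24 weeks rest on these libraries, and they are called here only by their labels. The cells of the rejecting kidney and naive spleen CD8 matrices were all also in the matrices of all cells. When the latter were clustered, 87.7% and 79.1% of these cells fell among CD8 T cell-like cells.

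Entpd1 lies on chromosome 19 (GRCm38, 40612366 to 40741602, + strand), P2rx7 on chromosome 5 (122643911 to 122691432, +), Nt5e on chromosome 9 (88327197 to 88372092, +), Adora2a on chromosome 10 (75316877 to 75334784, +) and Art2b on chromosome 7 (101576970 to 101585600, -). Art2b has a near-identical neighbouring copy that was not listed as a gene, so its counts are uncertain. The 5 spans differ in intron length, and Entpd1 with 123657 bases of intron was at the 93.8th percentile of the listed genes, which matters because intronic reads can be counted in droplet data. Because Entpd1 was the member whose level moved most, the 250 bases before each of its 2 RefSeq start sites are shown (GRCm38.p6, + strand, upstream of exons). Capitals mark TGACG, part of the cAMP response element, and GCGTG, a core of hypoxia response elements, on either strand:
Entpd1 first start, chr19:40612116-40612365: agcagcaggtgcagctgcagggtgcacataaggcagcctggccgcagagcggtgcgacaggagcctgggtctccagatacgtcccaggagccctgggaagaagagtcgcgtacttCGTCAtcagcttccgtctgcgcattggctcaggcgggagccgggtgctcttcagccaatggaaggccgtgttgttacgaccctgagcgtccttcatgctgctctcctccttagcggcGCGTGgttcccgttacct
Entpd1 second start, chr19:40659520-40659769: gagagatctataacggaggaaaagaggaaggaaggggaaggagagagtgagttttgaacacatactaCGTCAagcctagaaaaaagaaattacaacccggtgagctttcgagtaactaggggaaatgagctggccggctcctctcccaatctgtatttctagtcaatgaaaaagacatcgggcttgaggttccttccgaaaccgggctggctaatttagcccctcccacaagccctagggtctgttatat

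The first window held TGACG at 135 and GCGTG at 18 bases before the start, with 62.4% G or C, and the second held TGACG at 183 bases before the start, with 47.2% G or C. Of 32851 promoters of 300 bases, 20.8% held TGACG, which lies within the full element TGACGTCA, and 32.4% held GCGTG. TGACGTCA itself was in 1.79% of promoters and in neither Entpd1 window. These matches describe letters and no binding was measured.

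Among CD8 T cells, P2rx7 was a low gene in every condition. Its summed level in UMIs per 1000000 UMIs of the library (CPM) was 8.44, 3.54 and 3.39 in the accepted kidneys at 1 week and 5.80, 2.25, 2.91, 3.27 and 3.85 at 3 weeks. These groups overlapped, and the change of -0.46 ± 0.32 (log2, SE) did not pass the test (adjusted p = 0.21, edgeR's quasi-likelihood test on summed counts, adjusted over all genes tested). With TMM scaling, which centres the fold changes of most genes near 0, it passed at -0.82 (adjusted p = 0.030, edgeR). With library totals the change was 0.074 without the first kidney at 1 week. In cells with a CD8 UMI and no Cd4 or Foxp3 UMI, a restriction chosen later, P2rx7 did not fall. It was at 3.19 ± 1.67 CPM (SD, n = 3) at 1 week and 3.24 ± 1.10 CPM (n = 5) at 3 weeks.

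Recipient spleens had 16.2, 13.4 and 13.6 CPM of P2rx7 at 1 week and 6.37, 6.37, 8.64, 9.42 and 5.05 at 3 weeks. All 3 spleens at 1 week were above all 5 at 3 weeks (log2 change -1.01 ± 0.17, adjusted p = 9.8e-05, edgeR). Naive spleens had 0.211, 2.23, 1.92, 2.02 and 2.09 CPM, below both, and the 35 UMIs behind them set how well these levels are known. P2rx7 was 3.11 ± 0.26 higher on the log2 scale in recipient spleen at 1 week than in naive spleen (adjusted p = 5e-08, edgeR).

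At 1 week much of the P2rx7 signal lay outside cells with a CD8 UMI alone. In recipient spleen at 1 week, 11.8% of its UMIs came from cells with a CD8 UMI and no Cd4 or Foxp3 UMI, and P2rx7 was at 3.63 ± 1.66 CPM (SD, n = 3) in these cells against 23.7 ± 2.43 in cells with a Cd4 UMI alone. In the accepted kidney at 1 week the same cells held 50.2% of its UMIs, at 3.19 ± 1.67 against 17.3 ± 10.2 CPM. They held 86.2% of its UMIs in accepted kidney at 3 weeks, 74.3% in naive spleen and 13.7% in recipient spleen at 3 weeks. Within cells with a CD8 UMI and no Cd4 or Foxp3 UMI, a restriction chosen after seeing the data, P2rx7 was still higher in recipient spleen at 1 week than in naive spleen, by 1.47 ± 0.47 (adjusted p = 0.012, edgeR). In the same cells its difference between kidney and spleen at 1 week, -1.53 ± 0.30 over all cells (adjusted p = 0.0013, edgeR), was -0.23 ± 0.40 (adjusted p = 0.67, edgeR). At 3 weeks the difference of -0.96 ± 0.24 (adjusted p = 0.0014, edgeR) turned to 0.79 ± 0.37 (adjusted p = 0.066, edgeR).

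The highest P2rx7 levels of all 9 CD8 conditions were in the libraries labelled spleen at 24 weeks, at 24.9, 24.7 and 29.0 CPM, where 91.7% of the UMIs came from cells with a CD8 UMI and no Cd4 or Foxp3 UMI. In those cells alone P2rx7 was at 25.8 ± 2.27 CPM (SD, n = 3), and it was 3.75 ± 0.25 higher on the log2 scale than in the same cells of recipient spleen at 3 weeks (adjusted p = 8e-12, edgeR). The libraries labelled kidney at 24 weeks had 5.41, 10.4 and 5.20 CPM over all cells and 1.88 ± 1.03 CPM in cells with a CD8 UMI. Against the kidneys at 3 weeks, P2rx7 was 0.94 ± 0.29 higher over all cells (adjusted p = 0.0096, edgeR), 0.54 and no longer called without the second of these libraries, and lower by a value that did not pass in cells with a CD8 UMI (-0.71 ± 0.41, adjusted p = 0.13, edgeR).

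Rejecting kidneys had 13.5 and 9.41 CPM of P2rx7, both above the 3 accepted kidneys at 1 week, and the difference of 1.17 ± 0.46 on the log2 scale did not pass the test (adjusted p = 0.053, edgeR). It was 1.71 without the first accepted kidney and 1.43 without the rejecting kidney tagged 3, and passed in both cases, while with TMM scaling it was 0.50 ± 0.44 (adjusted p = 0.37, edgeR). In rejecting kidneys, cells with a CD8 UMI and no Cd4 or Foxp3 UMI held 45.9% of P2rx7 UMIs. P2rx7 was at 6.41 ± 1.33 CPM (SD, n = 2) in these cells. Cells with no CD8, Cd4 or Foxp3 UMI held another 45.9%, at 33.6 ± 11.9 CPM. The spleens of rejecting recipients had 3.78, 0 and 1.51 CPM of P2rx7, from 4 UMIs.

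**Figure D1:**
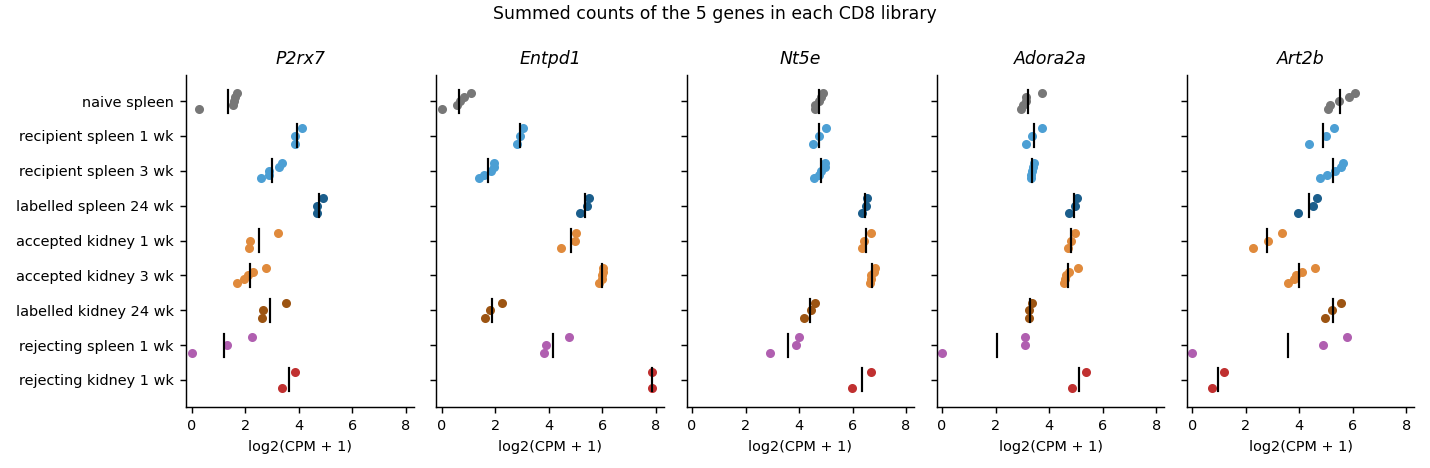
Each point is 1 CD8 library (horizontal axis, log2 of CPM + 1), 1 panel per gene and 1 line of points per condition, with a black bar at the mean. Entpd1 was highest in the 2 rejecting kidneys (232 and 230 CPM), the mean of Art2b was lowest there (1.26 and 0.649 CPM), and Nt5e and Adora2a were higher in accepted kidneys than in recipient spleens at 1 and 3 weeks.

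Art2b, unlike Entpd1 and Nt5e, was lower in accepted kidney than in recipient spleen at 1 and 3 weeks, but it rose in the kidney between these times. It was at 34.0, 67.4, 32.8, 44.2 and 56.2 CPM in naive spleen and at 38.3, 30.6 and 19.6 CPM in recipient spleen at 1 week, groups that overlapped but differed by -0.66 ± 0.21 on the log2 scale (adjusted p = 0.013, edgeR). In accepted kidneys it was at 9.11, 6.09 and 3.81 CPM at 1 week and at 23.0, 12.8, 13.7, 16.2 and 11 CPM at 3 weeks. Every kidney at 3 weeks was above every kidney at 1 week, and the rise was 1.33 ± 0.27 (adjusted p = 0.00037, edgeR).

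Against recipient spleen Art2b was lower in the graft by 2.26 ± 0.30 on the log2 scale at 1 week (log2 fold change -2.26, adjusted p = 0.00012, edgeR) and by 1.32 ± 0.18 at 3 weeks (log2 fold change -1.32, adjusted p = 3.6e-06, edgeR). The rejecting kidneys had 5 Art2b UMIs in all, 1.26 and 0.649 CPM, while the spleens of rejecting recipients ranged from 0 to 54.1 CPM. Art2b was 2.75 ± 0.68 lower in rejecting than in accepted kidney at 1 week (log2 fold change -2.75, adjusted p = 0.0076, edgeR). In this test it met the filter on low counts only through the accepted kidneys, so the difference is given as a description. Against the spleens of rejecting recipients Art2b was 5.10 ± 0.78 lower (log2 fold change -5.10, adjusted p = 0.00054, edgeR), though the groups overlapped. There it met the filter on low counts only through the spleens, so nothing is read from this p-value. In a stricter set of CD8 cells the value against accepted kidney was -2.17 ± 1.36 and did not pass (adjusted p = 0.20, edgeR).

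Entpd1 rose from 1 to 3 weeks in the accepted graft and was highest in rejection. Accepted kidneys had 30.6, 31.2 and 20.8 CPM at 1 week and 62.8, 64.4, 57.9, 62.8 and 64.7 CPM at 3 weeks, so that every kidney at 3 weeks was above every kidney at 1 week. The log2 rise was 1.19 ± 0.12 (adjusted p = 5.8e-07, edgeR), and it was 1.21 ± 0.13 in cells with a CD8 UMI and no Cd4 or Foxp3 UMI. After thinning each cell to 1000 UMIs, a UMI of Entpd1 was present in 2.58% of cells at 1 week and 5.90% at 3 weeks (means over libraries).

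The size of the Entpd1 rise depended on the scaling. Between these groups the median gene rose by 0.41 on the log2 scale, and 71.3% of the genes called were higher at 3 weeks, against 49.7% with TMM scaling, under which Entpd1 rose by 0.81 ± 0.12 (adjusted p = 3.3e-05, edgeR). With fold changes adjusted for the intron length of genes, the rise was 0.41 ± 0.11 (adjusted p = 0.0038, edgeR).

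Spleens of naive mice and of accepted recipients at 1 and 3 weeks showed little Entpd1. Recipient spleens had 6.62, 7.21 and 5.94 CPM at 1 week and 1.99, 1.59, 2.59, 2.88 and 2.89 CPM at 3 weeks, and naive spleens had 0 to 1.11 CPM, from 12 UMIs. Over all cells of these matrices Entpd1 fell by 1.48 ± 0.22 from 1 to 3 weeks in spleen (log2 fold change -1.48, adjusted p = 3.3e-05, edgeR). It was 3.5 ± 0.35 higher at 1 week than in naive spleen (adjusted p = 3.5e-07, edgeR). In this test it met the filter on low counts only through the recipient spleens, so the difference is given as a description. In cells with a CD8 UMI and no Cd4 or Foxp3 UMI the difference from naive spleen was 2.36 ± 0.45 (adjusted p = 0.00022, edgeR). Cells with a Foxp3 UMI held 29.6% of the Entpd1 UMIs of recipient spleen at 1 week, at 27.9 ± 8.52 CPM (SD, n = 3), against 3.21 ± 0.35 CPM in cells with a CD8 UMI and no Cd4 or Foxp3 UMI. These CD8 cells held 22.9% of its UMIs at 1 week. At 3 weeks Entpd1 was at 1.56 ± 0.32 CPM (SD, n = 5) in them, and its change in them was too low to test. Cells with a Foxp3 UMI made up 3.67 to 6.13% of spleen cells at 1 week and 0.48 to 1.70% at 3 weeks. Their part in the fall was not tested. The graft exceeded the spleen by 2.06 ± 0.18 at 1 week (adjusted p = 6.2e-06, edgeR) and by 4.73 ± 0.12 at 3 weeks (adjusted p = 1.4e-16, edgeR). Over all cells of these matrices, the change from 1 to 3 weeks differed between the tissues by 2.67 ± 0.24 (interaction, adjusted p = 3.4e-08, edgeR).

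The libraries labelled spleen at 24 weeks had 44.3, 35 and 41.7 CPM of Entpd1 and those labelled kidney 2.53, 3.70 and 2.08 CPM. In order of mean level, rejecting kidney came first, then accepted kidney at 3 weeks, the libraries labelled spleen at 24 weeks and accepted kidney at 1 week, and none of these neighbours overlapped. By label, Entpd1 was 4.51 ± 0.14 lower in kidney at 24 than at 3 weeks (log2 fold change -4.51, adjusted p = 8.8e-13, edgeR) and 4.10 ± 0.17 higher in spleen at 24 than at 3 weeks (adjusted p = 2.1e-14, edgeR).

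The rejecting kidneys had 232 and 230 CPM of Entpd1, far above the 20.8 to 31.2 CPM of accepted kidneys at 1 week. The difference was 3.07 ± 0.21 on the log2 scale (adjusted p = 9.6e-06, edgeR), and a UMI was present in 20.4% of thinned cells against 2.58%. The median gene was 0.70 higher in rejecting kidney, and 82.4% of called genes were higher, against 51.7% with TMM scaling. Entpd1 was 2.38 ± 0.20 higher with TMM scaling (adjusted p = 0.00013, edgeR) and 0.90 ± 0.18 higher with adjustment for intron length (adjusted p = 0.0072, edgeR). The 2 rejecting kidneys had an Mki67 or Top2a UMI, marking dividing cells, in 26 and 68.1% of cells, against 29.7 to 48.3% in accepted kidneys at 1 week. The spleens of rejecting recipients had 13.8, 13 and 25.7 CPM from 30 UMIs, below the rejecting kidneys by 3.63 ± 0.33 (adjusted p = 1.4e-05, edgeR).

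From 1 to 3 weeks Nt5e was high in the accepted graft and changed little. Accepted kidneys had 103, 80.0 and 86.1 CPM at 1 week and 114, 103, 102, 99.6 and 111 CPM at 3 weeks, with 1 of the earlier kidneys inside the range of the later ones. The log2 change of 0.24 ± 0.09 passed the test (adjusted p = 0.023, edgeR) but not without the second (0.17) or the third (0.22) kidney at 1 week or the fifth at 3 weeks (0.23). It was below the median gene's 0.41, and turned to -0.13 ± 0.07 with TMM scaling (adjusted p = 0.12, edgeR) and to -0.25 ± 0.07 with adjustment for intron length (adjusted p = 0.0051, edgeR).

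Recipient spleens had 25.5, 22.2 and 31.3 CPM of Nt5e at 1 week, 22.5 to 30.7 CPM at 3 weeks, and naive spleens had 23.0 to 28.5 CPM. These 3 spleen groups overlapped throughout. Every accepted kidney at 1 and 3 weeks was above all of these spleens, by 1.76 ± 0.14 at 1 week (adjusted p = 3.2e-06, edgeR) and 1.95 ± 0.08 at 3 weeks (adjusted p = 1.7e-13, edgeR). Rejecting kidneys had 103 and 62.6 CPM, a range that took in the accepted kidneys at 1 week (log2 difference -0.12 ± 0.23, adjusted p = 0.69, edgeR). Against the higher median gene in rejection this difference became -0.80 ± 0.22 with TMM scaling (adjusted p = 0.020, edgeR) and -1.21 ± 0.22 with adjustment for intron length (adjusted p = 0.0042, edgeR). The spleens of rejecting recipients had 15.1, 6.52 and 13.6 CPM, below the rejecting kidneys by 2.62 ± 0.38 (adjusted p = 0.00036, edgeR). The libraries labelled spleen at 24 weeks had 91.7, 81.2 and 90.7 CPM, and those labelled kidney had 17.3, 23.1 and 20.8 CPM, 2.37 ± 0.10 below kidney at 3 weeks (log2 fold change -2.37, adjusted p = 1.8e-11, edgeR).

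Adora2a followed Nt5e closely. Accepted kidneys had 30.3, 25.2 and 27.2 CPM at 1 week and 32.7, 22.2, 23.3, 23.5 and 25.9 CPM at 3 weeks, and these ranges overlapped (log2 change -0.11 ± 0.12, adjusted p = 0.43, edgeR). With TMM scaling the change was -0.49 ± 0.11 (adjusted p = 0.0017, edgeR). Recipient spleens had 9.32, 7.85 and 12.4 CPM at 1 week and 8.90 to 9.76 CPM at 3 weeks, and naive spleens had 6.76 to 12.5 CPM. At 1 and 3 weeks the accepted kidneys did not overlap these spleens and were higher, by 1.47 ± 0.16 at 1 week (adjusted p = 3.3e-05, edgeR) and 1.46 ± 0.13 at 3 weeks (adjusted p = 6.9e-09, edgeR).

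Rejecting kidneys had 28.2 and 40.6 CPM of Adora2a, overlapping the accepted kidneys at 1 week (0.33 ± 0.21, adjusted p = 0.20, edgeR), a difference that turned to -0.36 ± 0.18 with TMM scaling (adjusted p = 0.13, edgeR). The spleens of rejecting recipients had 7.55, 0 and 7.56 CPM, from 11 UMIs, below the rejecting kidneys by 2.35 ± 0.48 (adjusted p = 0.0043, edgeR). In this test Adora2a met the filter on low counts only through the kidneys, so nothing is read from the p-value. The libraries labelled kidney at 24 weeks had 8.48, 9.32 and 8.46 CPM and those labelled spleen 32.2, 30.6 and 25.7 CPM. Over the means of the 9 CD8 conditions, the log2 levels of Nt5e and Adora2a had a Pearson correlation of 0.975, those of Entpd1 and Nt5e of 0.69 and those of Entpd1 and Art2b of -0.87. These correlations are a description of 9 points that share libraries and depth.

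**Figure D2:**
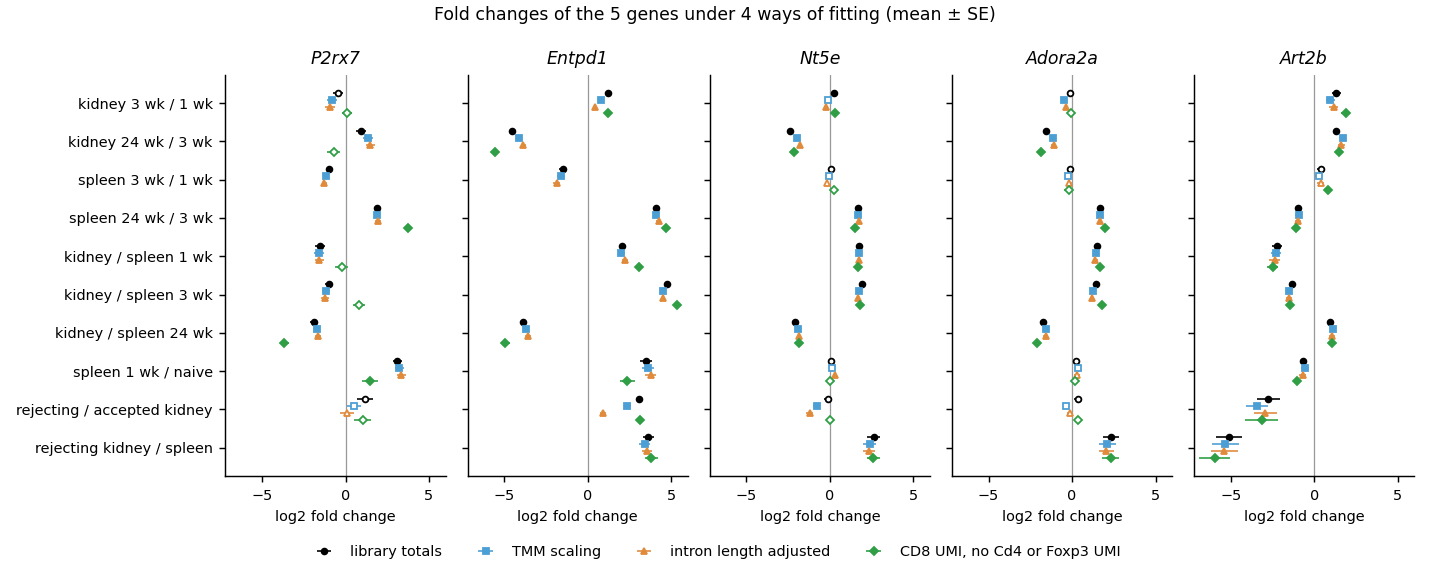
Log2 fold change and SE (horizontal axis) of each gene (panels) in each of 10 comparisons (vertical axis), from edgeR with library totals, with TMM scaling, with adjustment for intron length and in cells with a CD8 UMI and no Cd4 or Foxp3 UMI. Filled points passed an adjusted p of 0.05. Nt5e from 1 to 3 weeks in kidney lay on both sides of 0 (0.24 and -0.13), whereas Entpd1 in kidney over spleen at 3 weeks was 4.73 with library totals and 4.52 with TMM scaling.

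Counts of members that passed have to be read against how many genes passed. From 1 to 3 weeks in the accepted kidney 3 of 5 members passed (Entpd1, Nt5e and Art2b, all higher), where 75% of all 11693 genes tested passed, 53.5% higher and 21.5% lower. In kidney against spleen all 5 members passed at 1 week (51.4% of all genes, 27.3% higher and 24.1% lower) and at 3 weeks (67.5%, 47.3% higher and 20.2% lower), with Entpd1, Nt5e and Adora2a higher and P2rx7 and Art2b lower at both times. From 1 to 3 weeks in spleen 2 of 5 passed, P2rx7 and Entpd1, both lower (56.2% of all genes, 35.1% higher and 21.1% lower). In recipient spleen at 1 week against naive spleen 3 of 5 passed, P2rx7 and Entpd1 higher and Art2b lower (60.2%, 25% higher and 35.2% lower).

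By label, all 5 passed in kidney at 24 against 3 weeks, P2rx7 and Art2b higher and the others lower (73.5% of all genes, 16.6% higher and 56.9% lower). All 5 also passed in spleen at 24 against 3 weeks, with Art2b alone lower (60.6%, 29.8% higher and 30.8% lower), and in kidney against spleen at 24 weeks, with Art2b alone higher (53.1%, 16.4% higher and 36.7% lower). In rejecting against accepted kidney 2 of 5 passed, Entpd1 higher and Art2b lower (59.4%, 48.9% higher and 10.5% lower). With shares this large in all genes, these counts are not a result about the 5 genes.

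The background was lower in the remaining comparisons. In rejecting kidney against rejecting recipient spleen 4 members were tested and all 4 passed (Entpd1, Nt5e and Adora2a higher, Art2b lower). Of 8205 genes 16.1% passed (10.8% higher and 5.34% lower), and P2rx7 was left out for low counts. Art2b met the same filter only through the spleens (0.649 to 1.26 CPM in the kidneys). Adora2a met it only through the kidneys (0 to 7.56 CPM in the spleens). The filter thus partly set this count, and nothing is read from it. In the test of whether the change from 1 to 3 weeks differed between kidney and spleen 2 of 5 passed (Entpd1 and Art2b, both higher) against 40.1% of genes (29.2% higher and 10.9% lower). The Art2b difference of 0.95 ± 0.37 (adjusted p = 0.044, edgeR) lost its call with TMM scaling (0.77 ± 0.37, adjusted p = 0.11, edgeR) and in 9 of 16 fits without 1 library, at 0.63 to 0.96. In the test of whether the difference of kidney from spleen differed between rejecting and accepted recipients 2 of 5 passed, Entpd1 at 1.57 ± 0.35 (adjusted p = 0.039, edgeR) and P2rx7 at 3.71 ± 0.81 (adjusted p = 0.034, edgeR), against 1.42% of genes (1.08% higher and 0.343% lower). In cells with a CD8 UMI and no Cd4 or Foxp3 UMI neither passed (P2rx7 1.96 ± 1.00, adjusted p = 0.44, and Entpd1 0.70 ± 0.49, adjusted p = 0.60, edgeR), and nothing is read from the P2rx7 call, since the rejecting spleens held only 4 of its UMIs and it was too low to be tested within rejecting recipients. With TMM scaling Entpd1 did not pass (1.39 ± 0.34, adjusted p = 0.070, edgeR). Leaving out 1 library ended the P2rx7 call in 7 of 11 fits and the Entpd1 call in 6 of 11.

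Shares of cells with a UMI after thinning were compared for 50 pairs of gene and comparison. Of these, 19 had an unadjusted p below 0.05 and none passed after adjustment over the 50 (lowest adjusted p 0.0992, exact permutation test over libraries, two-sided). The smallest p that 3 against 5 libraries allow in this exact test is 0.0357 and that of 3 against 3 is 0.1, so with these library numbers no pair could have passed the adjustment over 50.

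**Figure D3:**
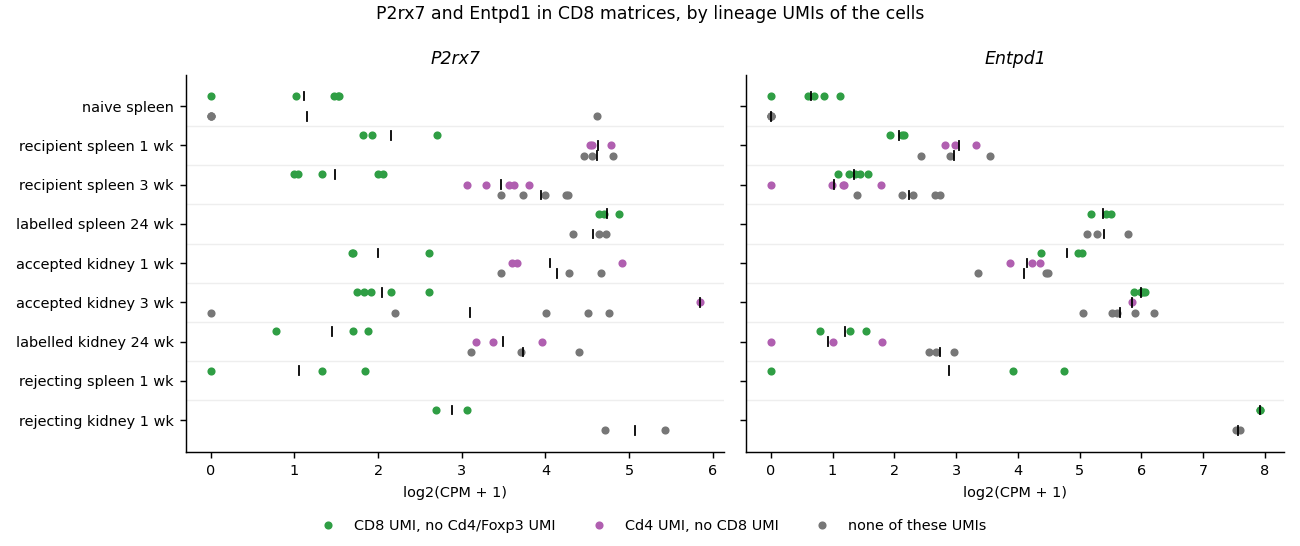
Level of P2rx7 and Entpd1 (log2 of CPM + 1) by kind of cell in the CD8 matrices, for libraries with at least 20 such cells. The kinds are cells with a CD8 UMI and no Cd4 or Foxp3 UMI, with a Cd4 UMI alone, and with no CD8, Cd4 or Foxp3 UMI. In recipient spleen at 1 week P2rx7 was at 3.63 CPM in the first kind and 23.7 CPM in cells with a Cd4 UMI alone.

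Within the CD8 matrices, Entpd1 was found more in cells with effector and residency genes. At 1 week in the accepted kidney, 4.2% of thinned cells with a UMI of Gzmb (granzyme B, a cytotoxic protease) carried Entpd1 against 1.71% of cells without, higher in 3 of 3 libraries. The same held at 3 weeks (6.66 against 5.44%, 5 of 5 libraries) and in the rejecting kidney (24.9 against 16.2%, 2 of 2). At 1 week the share was also higher with Itga1 (5.07 against 2.33%) and Itgae (4.66 against 2.38%), integrins of tissue-resident T cells, in 3 of 3 libraries. At 3 weeks these gates showed no such gap (Itga1 6.01 against 5.80%, Itgae 5.15 against 6.04%).

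At 1 week in the accepted kidney a UMI of Entpd1 was less frequent in cells with genes of naive T cells. It was found in 1.12% of cells with Lef1 against 2.54% without, and in 0 of 699 cells with Ccr7, which allows a share of up to 0.429% of cells with a UMI at this depth and sets no limit on cells that express it. In the rejecting kidney it was found in 7.32% of cells with Lef1 against 20.9% without. Pdcd1, which encodes PD-1, made little difference to Entpd1 (2.88 against 2.34% at 1 week, 5.77 against 5.92% at 3 weeks and 20.5 against 20.4% in rejection). These are shares over cells of the same libraries, given with no test.

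P2rx7 was less frequent in Pdcd1 cells of accepted and rejecting kidneys, at 0.31 against 0.70% at 1 week (lower in 3 of 3 libraries), 0.16 against 0.52% at 3 weeks (5 of 5) and 0.80 against 1.40% in rejection (2 of 2). Only 101, 86 and 26 thinned cells carried P2rx7 in these conditions. The shares were over all cells, while cells with a CD8 UMI and no Cd4 or Foxp3 UMI held 50.2, 86.2 and 45.9% of its UMIs. The part of other cells in this gap was not tested. Nt5e was lower in Gzmb cells at 1 week (7.44 against 9.23%, 3 of 3) and in rejection (5.91 against 9.75%, 2 of 2), and higher in Pdcd1 cells at 3 weeks (10.5 against 8.97%, 5 of 5). Few cells carried 2 members at once. Entpd1 and Nt5e, the 2 steps from ATP to adenosine, were both found in 117 cells at 3 weeks where independent detection within libraries would give 125, and in 29 cells at 1 week where it would give 35.4. Nt5e and Adora2a were both found in 51 cells at 1 week where it would give 40.8.

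**Figure D4:**
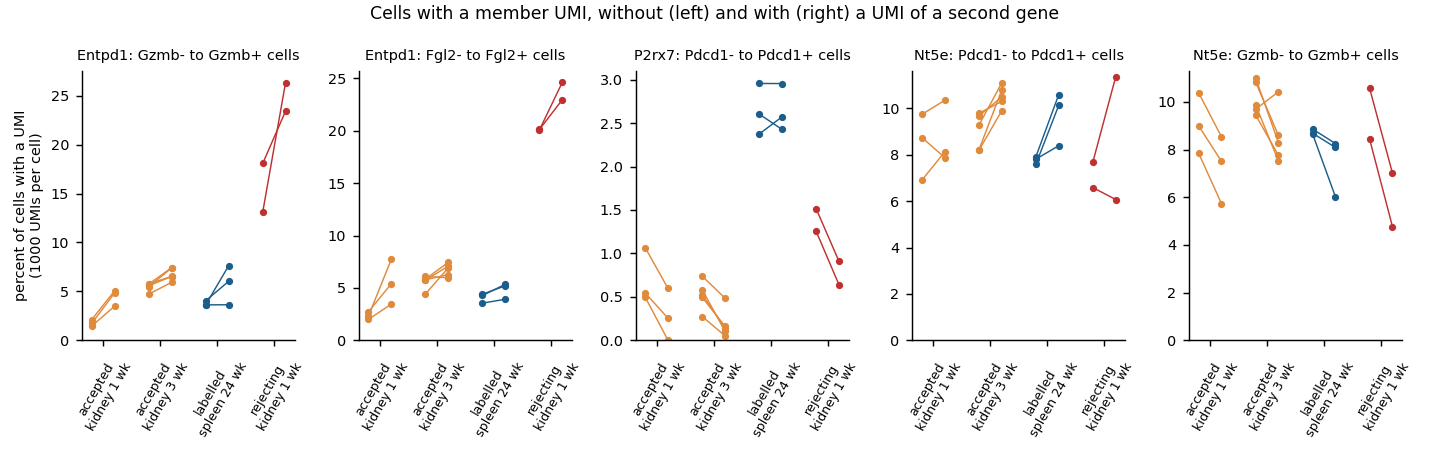
Share of thinned cells with a UMI of a member (vertical axis, percent) among cells with and without a UMI of each marker gene. The conditions are those listed on the axes and go by their labels. Entpd1 in Gzmb cells of the rejecting kidney reached 24.9% against 16.2% in the other cells.

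The all-cell matrix of the rejecting kidney showed that Entpd1 was not mainly a CD8 T cell gene there. Clusters were made without the 5 genes and their pathway lists and were named from marker genes. Entpd1 was at 638 and 504 CPM in macrophage-like cells, at 693 and 392 CPM in classical monocyte-like cells, and at 250 and 231 CPM in CD8 T cell-like cells. Thinned cells with a UMI made up 41.1%, 34.7% and 20.7% of these classes, and 6.99% of 101 B cell-like cells (median depths 1235 to 1595 UMIs in B cell-like and 1716 to 3184 in CD8 T cell-like cells).

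Myeloid RNA was also counted in lymphocytes of this matrix. The myeloid genes Lyz2, Cst3, Csf1r, C1qa, C1qb, Tyrobp and Apoe were present in CD8 T cell-like cells at 3.69 to 11.2% of their myeloid level, whereas Entpd1 was at 40.8 and 54.9% of its myeloid level. In B cell-like cells these genes were at 0 to 42.9% of their myeloid level and Entpd1 at 32.4 and 62.5%. These cells were few and shallow, so their values rest on few UMIs. In NK cell-like cells the myeloid genes other than Tyrobp were at 2.82 to 15.1% and Entpd1 at 29.3 and 46.7%. The part of myeloid RNA in these Entpd1 levels was not tested. Cells with markers of 2 lineages made up 14.2% of this matrix. Without them Entpd1 fell in B cell-like cells from 231 to 100.6 CPM. A cluster pair led by Cd4, Ctla4 and Icos, whose score was highest for regulatory T cell markers but in which only 5.06 and 11.7% of cells had a Foxp3 UMI, had Entpd1 at 405 and 288 CPM and P2rx7 at 44.1 and 42.3 CPM.

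The other members divided the classes of the rejecting kidney differently. P2rx7 was at 69.6 and 55.1 CPM in macrophage-like cells and 10.3 and 11.4 CPM in CD8 T cell-like cells. Nt5e was highest in CD8 T cell-like cells, at 97.7 and 55.5 CPM, with means of at most 5.1 CPM in myeloid classes. Adora2a was highest in NK cell-like cells, at 67.5 and 83.0 CPM, against 29.8 and 36.9 CPM in CD8 T cell-like cells. Art2b had a mean of at most 4.9 CPM in every class.

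**Figure D5:**
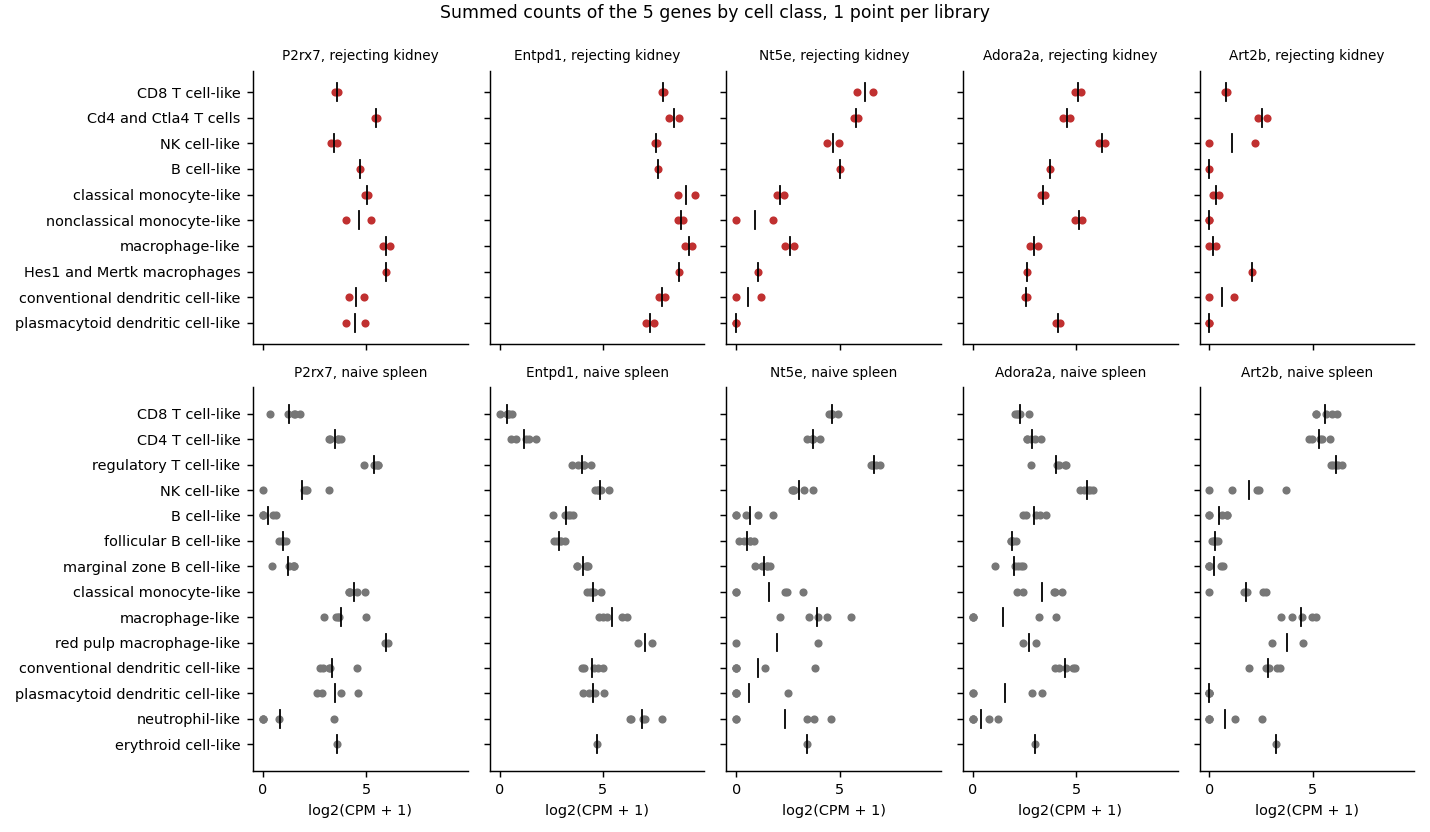
Level of each gene (log2 of CPM + 1) by cell class in all sorted cells of rejecting kidneys and naive spleens, 1 point per library with at least 20 cells of the class. Entpd1 had its highest mean in macrophage-like cells of the kidney (638 and 504 CPM) and Nt5e in regulatory T cell-like cells of naive spleen (90.1 to 122 CPM).

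In naive spleen, regulatory T cell-like cells, led by Foxp3 and Il2ra, carried all 5 genes. Nt5e was at 90.1 to 122 CPM in them (5 libraries), above the 21.6 to 29.5 CPM of CD8 T cell-like cells in every library, and in 9.63% of thinned cells against 2.00% in CD8 T cell-like and 0.06% in follicular B cell-like cells. P2rx7 was at 28.8 to 45.8 CPM in them and 0.3 to 2.5 CPM in CD8 T cell-like cells. Thinned shares of P2rx7 and Adora2a in naive CD8 T cell-like cells (0.18% and 0.30%) were close to those in follicular B cell-like cells (0.12% and 0.23%). Whether either was above background was not tested.

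Entpd1 lay mainly in other classes in naive spleen, at 0 to 0.5 CPM in CD8 T cell-like cells against 104 to 265 CPM in red pulp macrophage-like and 77.6 to 234 CPM in neutrophil-like cells. Adora2a was highest in NK cell-like cells here too, at 35.4 to 54.9 CPM. Art2b was at 57.7 to 83.4 CPM in regulatory T cell-like, 34.8 to 70.6 CPM in CD8 T cell-like and 0.1 to 0.3 CPM in follicular B cell-like cells.

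Further genes of these pathways were read from 5 lists, which were chosen with earlier results of these data known. Their counts are therefore a description. For ATP and nucleotide receptors, 2 of 13 passed the filter on low counts from 1 to 3 weeks in kidney and both rose. Of all genes tested there 53.5% rose and 21.5% fell, so this count is not a result about the list. In kidney against spleen at 3 weeks the ATP channel gene P2rx4 was lower in the graft (16.8 against 23.3 CPM, log2 fold change -0.47, adjusted p = 0.00016, edgeR). P2ry14, a UDP-sugar receptor and the only other receptor gene tested there, was higher (log2 fold change 1.35, adjusted p = 0.00016, edgeR). Of 13 ectoenzyme genes 2 were tested over time in kidney and both rose, which against the same shares is no result about this list either. Cd38, an NAD-consuming ectoenzyme, rose from 37.0 ± 11.2 to 102 ± 8.85 CPM (log2 fold change 1.48), and Enpp1, a nucleotide pyrophosphatase, from 13.7 ± 1.07 to 28.2 ± 4.65 CPM (1.05). Both were also higher in kidney than in spleen at 3 weeks, by 3.6 and 2.29 on the log2 scale, and Art4, the only other ectoenzyme gene tested there, was lower (log2 fold change -5.03, adjusted p = 2.4e-09, edgeR). P2ry14 and Art4 were named after their values were seen.

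Of 10 genes of adenosine reception, uptake and breakdown 7 were tested from 1 to 3 weeks in kidney. Of these 2 rose and 4 fell, where 53.5% of all genes rose and 21.5% fell. Their median was -0.60 against 0.41 for all genes. Adk, which encodes adenosine kinase, fell from 43.6 ± 4.14 to 5.18 ± 0.488 CPM (log2 fold change -3.07, adjusted p = 5.7e-11, edgeR). Slc29a1, an adenosine transporter, fell from 26.3 to 12.6 CPM and Pnp, a purine phosphorylase, from 44.8 to 29.6 CPM. Adora3, for the A3 receptor, rose from 2.93 ± 1.33 to 40.4 ± 6.67 CPM (log2 fold change 3.89, adjusted p = 6.3e-09, edgeR), and its locus overlaps Tmigd3, so the count is uncertain. It was at 0 in all 5 spleens at 3 weeks, so the kidney level was at least 305-fold higher against a floor of 3 counts over the group. In kidney against spleen at 3 weeks Dpp4, which encodes the adenosine deaminase binding protein CD26, was lower (31.0 against 61.1 CPM), Adk was lower (log2 fold change -2.27) and Pnp was higher (0.46).

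Of 10 P2X7 partners and downstream genes 9 were tested over time in kidney, 6 rose and 1 fell, where 53.5% of all genes rose and 21.5% fell, and 4 rose and 2 fell with TMM scaling. Pycard, the inflammasome adaptor, fell from 451 ± 43.7 to 126 ± 4.62 CPM (log2 fold change -1.85). Ano6, a scramblase, rose by 1.12, Gsdmd, a pore former, by 0.76, Casp1 by 0.73, Adam17 by 0.56, Adam10 by 0.50 and Panx1, an ATP release channel, by 0.40. With TMM scaling Panx1 (0.01) and Adam10 (0.12) did not pass. In kidney against spleen at 3 weeks Casp1 was 2.24 higher and Adam10, Gsdmd, Panx1 and Adam17 were 0.42 to 0.78 higher, and Pycard was 0.55 lower (log2 fold change -0.55).

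Of 10 cAMP response genes all 10 were higher in kidney than in spleen at 3 weeks, where 47.3% of all genes were higher. The median of the list was 1.15 against 0.22 for all genes, and 8 passed with TMM scaling. Since the list was chosen with earlier results of these data known, this count is no independent test of it. Nr4a2, a nuclear receptor, was at 530 ± 54.7 against 19.4 ± 1.47 CPM (log2 fold change 4.77, adjusted p = 6.4e-18, edgeR). Crem, a cAMP-responsive transcription factor, was at 173 ± 61.3 against 6.71 ± 0.787 CPM (4.68). Nr4a3 (2.55), Per1 (1.33), Sik1 (1.18), Prkar1a (1.13), Nr4a1 (1.08) and Pde4d (1.02) were also higher, while Pde3b and Pde4b (0.26 and 0.27) did not pass with TMM scaling. At 1 week 8 of the 10 were already higher in kidney than in spleen and 1 was lower. Of all genes 27.3% were higher and 24.1% lower there, and the median of the list was 1.28 against 0.0033 for all genes. From 1 to 3 weeks in kidney 6 rose and 1 fell, where 53.5% of all genes rose and 21.5% fell. With TMM scaling 3 rose and 2 fell. Pde3b, a cAMP phosphodiesterase, rose by 1.76, Nr4a2 by 1.32, Per1 by 0.90, Pde4d by 0.79, Crem by 0.60 and Pde4b by 0.55, and Nr4a1 fell (log2 fold change -1.26). With TMM scaling Crem (0.22), Pde4b (0.17) and Pde4d (0.42) did not pass. These genes respond to many signals, and adenosine was not measured. Kidneys alone were digested with collagenase, and the part of this step in the kidney levels was not tested.

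The genes whose mean log2 levels over the 9 CD8 conditions were most like each member were named by a rule on Pearson's correlation, over 7263 genes. For Entpd1 they were Ccdc50 (0.994), Fbxw8 (0.991), Ptprj (0.991), Srgap3 (0.990) and Hip1 (0.988). For Nt5e they were Serpinb9 (0.993), 5830408C22Rik (0.992), Serpinb6b (0.978), Cops4 (0.977) and Nucb1 (0.977), and for Adora2a Mapk3 (0.985), Cops4 (0.976), Gabpb1 (0.972), Nudt4 (0.971) and 5830408C22Rik (0.970), so that 2 genes stood in both sets. For Art2b they were Dusp7 (0.981), Letm2 (0.979), Gm20186 (0.965), Cbx7 (0.964) and Galnt11 (0.961). For P2rx7 the highest values were lower, with Klra9 (0.910), Ginm1 (0.879), Maf (0.874), Abt1 (0.833) and Phyh (0.821). With 9 points and 7263 genes, values this high are a description and carry no test.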

How the data were processed

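Per the labels and the study's methods, viable CD45+ cells were profiled on a 10x Genomics 3' kit, and the submitters' processing notes name Cell Ranger and mm10, with no version. The authors filtered cells on UMIs, mitochondrial content and genes, clustered them in Seurat after integration and annotated clusters manually by their marker genes. The deposited files hold raw UMI counts per gene and cell, with the authors' selection of CD8 T cells already made. Which clusters were selected was not given in the sources used here. Counts of a library tag were summed over its cells, and CPM is the summed count per 1000000 UMIs of that library.

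Comparisons used edgeR 4.0.16 (quasi-likelihood test, library totals, filterByExpr, R 4.3.3) over all genes, and p-values were adjusted by Benjamini-Hochberg and called under 0.05. On simulated counts this recovered 84.8% of genes changed 2-fold for accepted kidney at 3 against 1 week. It recovered 36.1% for rejecting against accepted kidney and 15.2% for rejecting kidney against rejecting recipient spleen. Of the calls 7.22%, 4.42% and 7.77% were false, and 10.4% for recipient spleen at 3 against 1 week. The first simulation changed 196 of 11460 genes, far fewer than were called in the data, so these shares may not hold there. Alternatives were TMM, DESeq2 1.42.0, no filter on low counts, strict CD8 cells (a CD8 UMI and none of Cd4, Foxp3 or the myeloid and B cell carry-over lists), no dividing cells, an adjustment for intron length in 10 groups of genes, 1 fit of all 9 groups, a replicate block, and each library left out. Cells with a CD8 UMI and no Cd4 or Foxp3 UMI, and classes without cells with markers of 2 lineages, were added after seeing the data. Shares were taken after thinning each cell to 1000 UMIs, leaving out 313, 53, 97 and 1 shallower cells of recipient spleen at 1 and 3 weeks, of the libraries labelled spleen at 24 weeks and of naive spleen. They were compared by exact permutation tests (scipy 1.17.1). The 2 all-cell matrices were clustered (2000 variable genes, 30 components, Leiden resolution 0.8) without the 5 genes and their pathways. No doublet caller was run. Intervals and limits cover counting error only.

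Gene positions came from GENCODE M21 (GRCm38), which matched 97.3% of listed genes, and promoters from RefSeq, which gave none for Adora2a. Named genes were the 5 members, pathway genes called over time in kidney or in kidney against spleen at 3 weeks with at least 20 CPM, and the 5 genes most like each member. The members and lists were chosen with earlier results of these data known. The integrated matrices, and the all-cell matrices of accepted grafts, were not used here.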

Additional observations from a re-analysis of the deposited data

Results flagged for a closer look

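Each of the 5 genes was checked for a library far from the rest in the groups of 5 libraries, and 3 of 15 such sets had one, where chance gives about 1 in 20. Entpd1 in the third accepted kidney at 3 weeks was at 57.9 CPM, the next being 62.8. P2rx7 in the first naive spleen was at 0.211 CPM, the next being 1.92. Adora2a in the third naive spleen was at 12.5 CPM, the next being 7.85.

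The change from 1 to 3 weeks differed between kidney and spleen for Entpd1 (interaction 2.67 on the log2 scale, adjusted p = 3.4e-08, edgeR), which was higher at 3 weeks in 5 of 5 kidneys and lower in 5 of 5 spleens. It differed also for Art2b (0.95, adjusted p = 0.044, edgeR). The difference of kidney from spleen was larger in rejecting than in accepted recipients for Entpd1 (1.57, adjusted p = 0.039, edgeR), a call lost in 6 of 11 fits without 1 library and in cells with a CD8 UMI and no Cd4 or Foxp3 UMI (adjusted p = 0.60, edgeR). P2rx7 had 3.71 (adjusted p = 0.034, edgeR) in the same test, from which nothing is read, with 4 UMIs in the rejecting spleens, the call lost in 7 of 11 fits and no call in those same cells (adjusted p = 0.44, edgeR). The parts of cell makeup and of strain in these differences were not tested.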

How the results depend on the processing

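Over time in kidney 5 members passed with adjustment for intron length, against 3. Strict CD8 cells, which are far fewer, left 1 member called in spleen at 3 against 1 week, 1 in spleen at 1 week against naive spleen, 1 in rejecting against accepted kidney, 2 in rejecting kidney against spleen, and 0 in both interactions. TMM and DESeq2 each left 1 member in the interaction with time, and TMM 1 in that with rejection. Cells with a CD8 UMI and no Cd4 or Foxp3 UMI left 1 in spleen over time (Art2b, with P2rx7 and Entpd1 too low to test) and 0 in the interaction with rejection. Genes called in strict cells were 5474 (kidney, 24 against 3 weeks), 2208 and 2638 (spleen, 3 against 1 and 24 against 3 weeks), 2694, 3963 and 2828 (kidney against spleen at 1, 3 and 24 weeks), 3215 (spleen against naive), 824 and 36 (interactions), against 8543, 5858, 6312, 6016, 7391, 5512, 6231, 4939 and 187. In the interaction with rejection cells with a CD8 UMI gave 60 and DESeq2 435. In rejecting kidney against spleen DESeq2 gave 878 and the fit of all 9 groups 3916, against 1325. The cause was not tested. With TMM scaling the share of calls that were higher moved from 22.6 to 48.4% (kidney, 24 against 3 weeks), 62.5 to 48.5% (spleen, 3 against 1 week), 70.0 to 51.4% and 31.0 to 48.4% (kidney against spleen at 3 and 24 weeks), 66.9 to 49.2% (rejecting kidney against spleen), and 72.8 to 50.6% and 75.9 to 57.7% (interactions), and with DESeq2 from 41.6 to 56.5% (spleen against naive).

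Signs turned for Nt5e over time in kidney (TMM -0.13, DESeq2 -0.14, intron length -0.25) and spleen (-0.082, -0.085 and -0.20), for Adora2a in rejecting against accepted kidney (-0.36, -0.37 and -0.14), and in the interaction with time for Nt5e (DESeq2 -0.052) and Adora2a (strict cells 0.053, CD8 UMI 0.14). In cells with a CD8 UMI P2rx7 turned over time in kidney (0.087 at 3 against 1 week, -0.71 at 24 against 3 weeks) and in kidney against spleen at 3 weeks (0.79). Without cells with markers of 2 lineages Entpd1 in B cell-like cells of rejecting kidney was 100.6 CPM.

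Leaving out 1 library gave -0.71 to 0.074 for P2rx7 over time in kidney, -0.057 to 0.20 and -0.24 to 0.10 for Nt5e and Adora2a over time in spleen, -0.10 to 0.15 for Nt5e against naive spleen, -0.51 to 0.21 for Nt5e in rejecting against accepted kidney and -0.21 to 0.13 for Adora2a in the interaction with time. Members called were 1 to 3 in the interaction with time and 0 to 2 in that with rejection, where 56 to 379 genes were called (56 without the first rejecting spleen, 379 without the rejecting kidney tagged 3). In rejecting kidney against spleen 594 to 1871 genes were called (594 without the first spleen and 815 without the third). Where this left 1 rejecting kidney, it was assumed to vary like the other groups. Of single-gene values without 1 library 443 kept their direction and side of the threshold, 26 lost the call, 6 gained it and 13 turned, and under the other alternatives 400, 14, 16 and 15.

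Same-numbered kidney and spleen libraries correlated at 0.06 to 0.25 at 1 week, 0.03 to 0.35 at 3 weeks, 0.05 to 0.16 at 24 weeks and -0.03 to -0.02 in rejection. No label says whether a shared number marks 1 mouse, and the main tests did not pair the libraries. The kidney libraries correlated best with their own number in 3 of 3, 3 of 5 and 3 of 3 accepted cases. A replicate block gave 6379, 7743, 5517 and 1114 genes and called 5, 5, 5 and 3 members (in rejection Art2b was not tested and P2rx7 did not pass), and changed no call of a member tested.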
